A study of Mus musculus with 6 samples.

Results

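The Polycomb repressive complex genes followed here are Ezh1, Ezh2, Suz12 and Eed of Polycomb repressive complex 2 (PRC2) and Bmi1, Ring1, Rnf2, Cbx2, Cbx7 and Cbx8 of Polycomb repressive complex 1 (PRC1). They were chosen by gene symbol and are 10 of the 23337 genes in the count table. Polyadenylated RNA was sequenced from mouse leukemia that the labels call primary and neonatal and that the series title describes as MLL-rearranged. The comparison asks whether exposure of this leukemia to the chemokine CCL5 changes the RNA of these genes. Of the 6 libraries, 3 were labelled as treated with ccl5 and 3 as kept under control conditions. Ccl5 replicates 2 and 3 and control replicate 3 came from a primary transplant and ccl5 replicate 1 from a tertiary transplant, while control replicates 1 and 2 carry no transplant label. As sources the labels give neo30ccl5 for ccl5 replicate 1, neo10ccl5 for ccl5 replicates 2 and 3, neo10ctrl for control replicate 3, neo_control for control replicate 1 and negative for control replicate 2, names they do not explain. Mouse strain, the fusion partner of MLL, the dose of CCL5 and the length of exposure are not given in the sources used here, nor is it said whether libraries of a group came from separate animals, so p-values measure only the spread between these libraries.

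Polycomb proteins keep genes silent through marks on histones. PRC2 methylates histone H3 at lysine K27 through its catalytic subunit, EZH2 or EZH1, and needs SUZ12 and EED to be active. Canonical PRC1 recognises that mark through a CBX protein and ubiquitinates histone H2A through RING1 or RNF2, the enzyme also called RING1B, together with a PCGF protein such as BMI1. In blood, EZH2 is the form typical of dividing cells and EZH1 that of resting cells. BMI1 sustains stem cell self-renewal by silencing Cdkn2a, and CBX8 is known as a binding partner of the MLL fusion protein MLL-AF9.

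Gene counts summed to between 13421100 and 18445095 per library. The libraries did not sort by treatment. Control replicates 1 and 2 were closely alike (Pearson r of log2 CPM, the counts scaled to library size, 0.995 over the tested genes), as were ccl5 replicates 1 and 3 (r 0.993). Ccl5 replicate 2 lay closest to a library of the other group, control replicate 3 (r 0.995), while all remaining pairs lay between r 0.826 and 0.887. The labels were used as given. Whether any label or column was exchanged was not tested, and every fold change and every fit without a library rests on them. Even these alike pairs differed by more than sampling noise, with a chi-square of 3.41 to 6.94 per degree of freedom, and all 6 were kept as separate samples. Ccl5 replicates 1 and 3 had 0 reads on 4 Y-linked genes, where the other 4 libraries had 5103 to 7777, so the libraries without Y-linked reads are found only in the ccl5 group. The leukocyte gene Ptprc and the myeloid genes of its list were read in every library (summed level 1937 to 6417 CPM), whereas 7 B-cell markers together stayed at or below 1.53 CPM. The myeloid levels were not uniform. Elane measured 24.8, 4548 and 12.8 CPM across ccl5 replicates 1 to 3 and 220, 226 and 4360 CPM across control replicates 1 to 3. Of the 7 genes, 2, Mpo and Elane, were highest in ccl5 replicate 2 and control replicate 3, and 4 in ccl5 replicates 1 and 3 (27.8% and 30.8% of all tested genes). The monocyte and macrophage markers, 9 genes, summed to 7554, 1031 and 8328 CPM across ccl5 replicates 1 to 3 and to 1089, 1140 and 1071 CPM across control replicates 1 to 3. All 9 had a fold change above 1, and 3 did so without overlap of the groups, where 49% and 8.27% of all tested genes did. Summed levels reached from 1.001 to 22.8 CPM for 8 T and NK cell markers, from 4.95 to 31.8 CPM for 8 erythroid and megakaryocyte markers and from 28.5 to 99.2 CPM for 6 stromal and endothelial markers, with Rag1, Ncr1, Hbb-b1 and Hba-a1 among the genes at 0 counts throughout. Most of the stromal and endothelial sum was Pecam1 in every library (26.3 to 94.1 CPM). The highest T and NK sum, in control replicate 1, was mostly Bcl11b (21.2 CPM). The highest erythroid and megakaryocyte sum, in ccl5 replicate 1, was mostly Pf4 (24.4 CPM). A list of 18 E2F target and cell division genes summed to 929, 3096 and 790 CPM in the ccl5 libraries and to 1294, 1403 and 2828 CPM in the controls. The monocyte and macrophage list was high in ccl5 replicates 1 and 3 and the cell division list in ccl5 replicate 2 and control replicate 3. The part of either in the Polycomb values below was not tested. In RNA of whole samples, fewer cells of a type and less RNA per cell cannot be told apart.

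All 10 Polycomb genes were expressed and passed the filter on low counts, and none was shown to change with CCL5. With edgeR's quasi-likelihood test 0 of the 10 reached an adjusted p of 0.05, where 0 of all 12174 tested genes (0%) did, and the smallest adjusted p was 0.365, for Cbx2. At an unadjusted p under 0.05 there was 1 of 10, Cbx2, higher with CCL5, against 13.7% of all tested genes (8.99% higher and 4.67% lower). DESeq2 called 0 of the 10 and 1.64% of the genes it tested, and limma-voom called 0 genes. In TMM-scaled CPM the ccl5 and control libraries lay fully apart in 0 of the 10, against 15.8% of all tested genes (8.27% higher and 7.49% lower). That count depends on the scaling, as for Ezh1. The fold change was above 1 for 7 and below 1 for 3 members, where 49% of all tested genes were above 1. That split became 4 and 6, and the share of all tested genes above 1 became 34.9%, when libraries were scaled by their totals alone, a scaling that lowered the median log2 fold change of all tested genes by 0.16, so directions of the smaller changes depend on the scaling. The median absolute log2 fold change was 0.20 over the members and 0.34 over all tested genes.

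**Figure D1:**
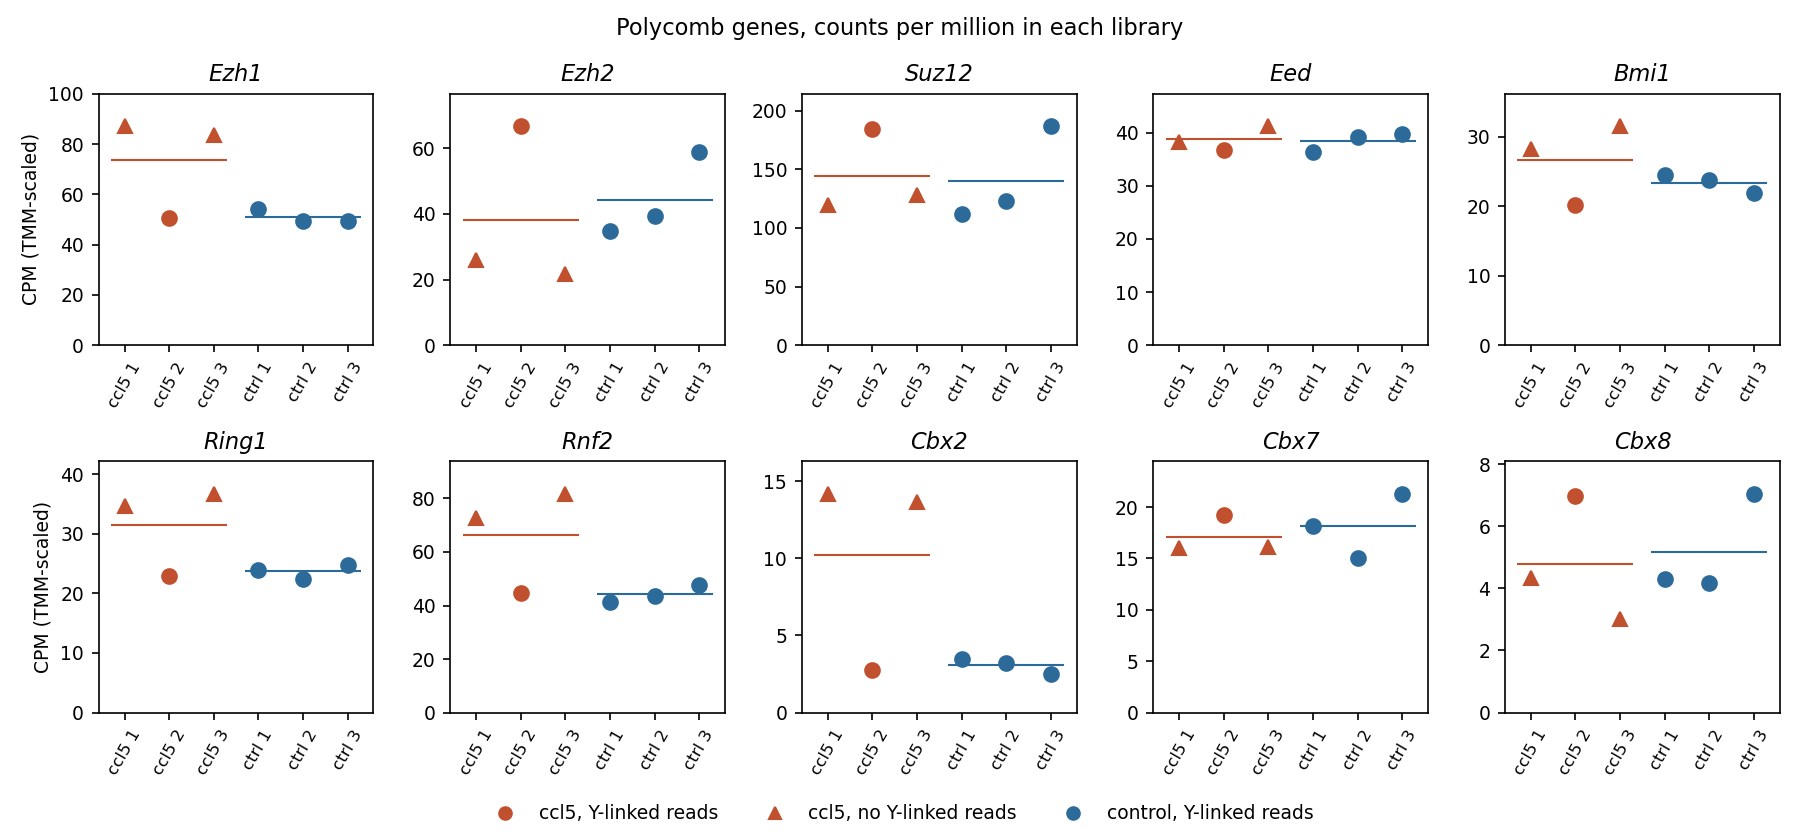
CPM (vertical axes, from 0, libraries scaled by the TMM method) of the 10 Polycomb genes in ccl5 replicates 1 to 3 (red) and control replicates 1 to 3 (blue, ctrl), with lines at the group means and triangles for the libraries without Y-linked reads. Ezh1, Bmi1, Ring1, Rnf2 and Cbx2 are highest in ccl5 replicates 1 and 3, while Ezh2, Suz12, Cbx7 and Cbx8 are highest in ccl5 replicate 2 and control replicate 3.

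Among the PRC2 enzymes, Ezh2 (chromosome 6, 47530274 to 47595030, mm10), the methyltransferase of dividing cells, varied 3.08-fold between the lowest and the highest library. It measured 26.0, 66.7 and 21.7 CPM across ccl5 replicates 1 to 3 and 34.7, 39.5 and 59.0 CPM across control replicates 1 to 3. The groups overlapped completely, since the ccl5 group held both the highest library and the 2 lowest ones. The log2 fold change, ccl5 over control, was -0.22 (SE 0.48, edgeR adjusted p = 0.852). Its sign rested on single libraries: it was -0.90 without ccl5 replicate 2, 0.07 without ccl5 replicate 3 and 0.05 without control replicate 3.

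Ezh1 (chromosome 11, 101191120 to 101226450), the paralog of Ezh2 that predominates in resting cells, measured 87.1, 50.6 and 83.5 under CCL5 and 54.0, 49.4 and 49.5 under control conditions, in CPM. Ccl5 replicates 1 and 3 stood above the other 4 libraries, which lay within a narrow band in TMM-scaled CPM. Ccl5 replicate 2 fell inside the control range at this scaling, and that position depends on the scaling. The log2 fold change was 0.53 (SE 0.24, edgeR adjusted p = 0.374), and 0.31 with library totals only. The quotient of the Ezh1 to the Ezh2 level, each in CPM per kilobase of exon, was 2.13, 0.482 and 2.45 across ccl5 replicates 1 to 3 and 0.990, 0.796 and 0.533 across control replicates 1 to 3. Ezh1 RNA thus exceeded Ezh2 RNA per length in ccl5 replicates 1 and 3, and Ezh2 exceeded Ezh1 in the other 4 libraries, by the least in control replicate 1.

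Ezh2 was placed beside cell division genes, since E2F factors are known to drive its transcription. Mki67, the gene of the proliferation marker Ki-67, measured 85.0, 687 and 61.8 CPM across ccl5 replicates 1 to 3 and 201, 199 and 659 CPM across control replicates 1 to 3. Ccl5 replicate 2 and control replicate 3 were the highest and ccl5 replicates 1 and 3 the lowest for both genes. With alike libraries in pairs the 6 points form 3 separate clusters, so no correlation is given. Of the 18 E2F target and cell division genes, 14 were highest in ccl5 replicate 2 and control replicate 3, a layout found in 27.8% of all tested genes. In 15 of the 18, Ccne1 among them, ccl5 replicates 1 and 3 lay below the other 4 libraries, as in 30.3% of all tested genes. The 3 genes of that list with the smallest p were not highest in ccl5 replicate 2 and control replicate 3. E2f2, an activating E2F gene, measured 48.2, 36.9 and 41.0 under CCL5 against 22.7, 23.1 and 36.6 CPM. Pcna, the sliding clamp gene, measured 423, 324 and 439.96 under CCL5 against 282, 291 and 307 CPM. For both the groups did not overlap, but neither passed (edgeR adjusted p = 0.365 and 0.367). Without ccl5 replicate 2 edgeR called Pcna at 0.56 (adjusted p = 0.0280), in a fit that called 26.2% of all tested genes. Ccne1, the cyclin E1 gene, measured 7.05, 12.03 and 4.10 under CCL5 against 10.7, 13.8 and 12.7 CPM, with overlap. Among 8953 genes with an average log2 CPM of at least 3, the profiles over the 6 libraries nearest to that of Ezh2 were those of Gne, Ddx39 and Mms22l, at a root mean square distance of 0.047, 0.053 and 0.063 on the log2 scale. Gne encodes a sialic acid synthesis enzyme, Ddx39 an RNA helicase and Mms22l a replication fork protein. Among those nearest to Ezh1 were Map3k3 (distance 0.032), a MAP kinase kinase kinase gene, and Thap4 (0.043).

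**Figure D2:**
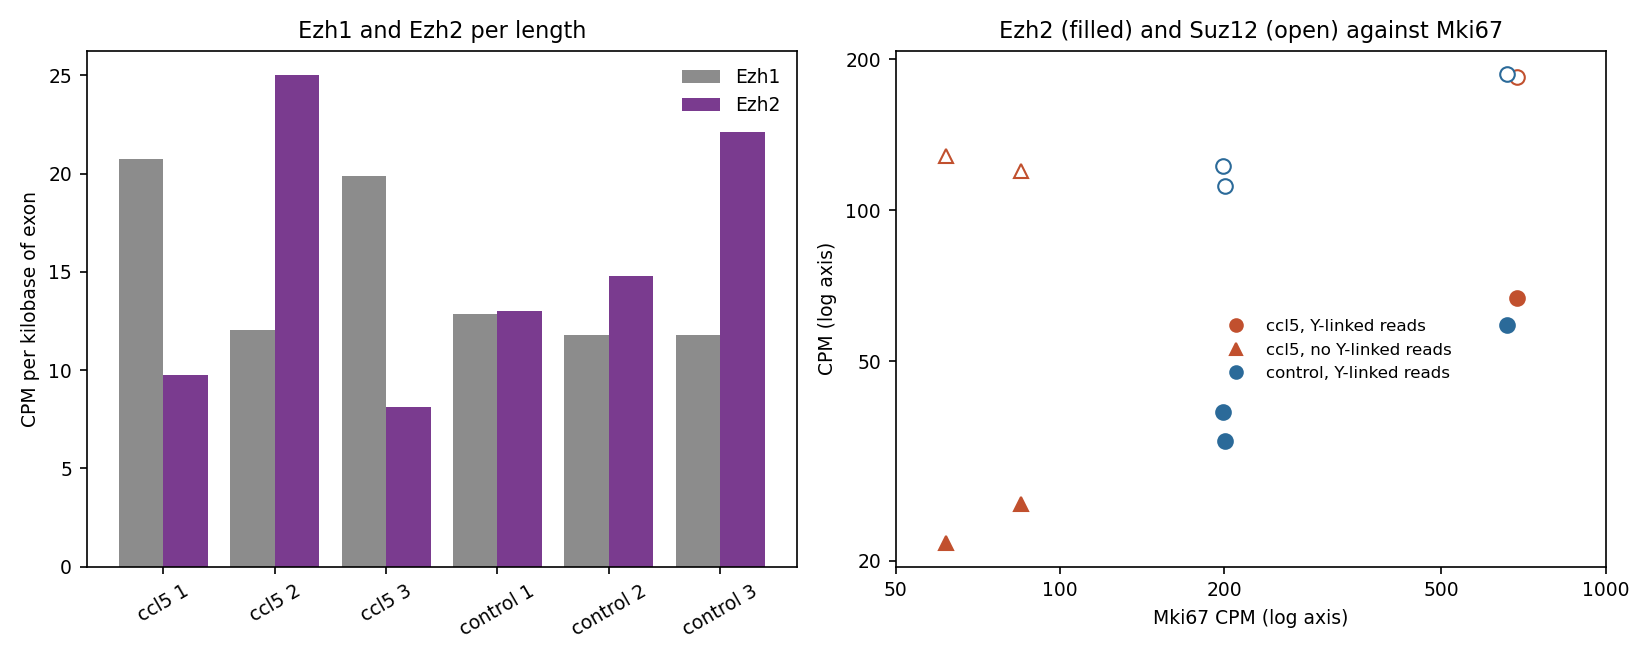
Left, level of Ezh1 (grey) and Ezh2 (purple) in CPM per kilobase of exon in each library, from 0. Right, Ezh2 (filled) and Suz12 (open) against Mki67, all in CPM on log axes, 1 symbol per library coloured by group: Ezh2 lies lowest at the 2 lowest Mki67 values, 85.0 and 61.8 CPM, and highest at the 2 highest, while Suz12 separates only the 2 highest libraries from the rest.

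Suz12 (chromosome 11, 79993106 to 80034123), the PRC2 scaffold, was the most abundant of the 10 per kilobase. It measured 119.9, 185 and 128 under CCL5 and 112, 123 and 187 under control conditions, in CPM, so that ccl5 replicate 2 and control replicate 3 were high and the other 4 libraries were alike. The group means were 144 ± 35.2 and 140.4 ± 40.5 CPM (SD, n = 3 each), with a log2 fold change of 0.04 (SE 0.28, edgeR adjusted p = 0.960). Eed (chromosome 7, 89954654 to 89980976), which binds the methylated histone, was the steadiest member in TMM-scaled CPM. Its levels were 38.2, 36.8 and 41.2 under CCL5 and 36.4, 39.1 and 39.7 under control conditions, in CPM, a 1.13-fold range over all 6 libraries against a median range of 2.05-fold over all tested genes. Its log2 fold change was 0.01 (SE 0.14, edgeR adjusted p = 0.975), and -0.17 with library totals only. The TMM factors ran from 0.819 in ccl5 replicate 3 to 1.19 in ccl5 replicate 2, so the steadiness of Eed depends on this scaling. Ezh2 and Suz12 thus shared their 2 highest libraries. At the TMM scaling Ezh2 alone was also low in ccl5 replicates 1 and 3, and Eed was level.

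Since Ezh2 and Suz12 were both high in ccl5 replicate 2 and control replicate 3, the bases around their start sites were searched for E2F-type words, and a stretch of each is shown beside one before the start of Ezh1, which had another layout. E2F factors switch on genes for DNA synthesis and mitosis. The words were TTTCCCGC, TTTCGCGC, TTTGCCGC and TTTGGCGC on both strands, chosen with these levels known, in windows from 250 bases before to 50 after the RefSeq start (GRCm38.p6). RefSeq windows were matched for 9 of the 10 members. A word was found in 2 of these 9, Ezh2 and Suz12, and in 2.32% of 27025 windows of all genes (1 per gene). In the lines below, 5′ to 3′ on the gene's strand, capitals mark the matching word, which begins at base 4 of the Ezh2 transcript and 219 bases before the Suz12 start. The Ezh1 stretch holds none. Cbx7 and Cbx8, the other 2 members that were highest in ccl5 replicate 2 and control replicate 3, had no such word in their windows.
Ezh2, chr6:47595020-47595149, minus strand: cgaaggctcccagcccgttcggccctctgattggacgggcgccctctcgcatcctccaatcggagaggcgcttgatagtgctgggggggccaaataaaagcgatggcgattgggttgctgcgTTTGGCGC
Suz12, chr11:79992856-79992985, plus strand: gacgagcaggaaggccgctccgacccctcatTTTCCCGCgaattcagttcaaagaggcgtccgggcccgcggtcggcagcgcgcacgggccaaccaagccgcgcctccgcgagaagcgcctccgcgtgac
Ezh1, chr11:101226464-101226593, minus strand: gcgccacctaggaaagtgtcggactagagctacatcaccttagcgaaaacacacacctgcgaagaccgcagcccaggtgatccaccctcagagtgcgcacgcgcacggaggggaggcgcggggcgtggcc
The CHR element of mitotic genes, searched as TTTGAA and TTCGAA, occurred in the windows of Suz12, Eed and Cbx7, 3 of 9, and in 19.4% of all windows, and it overlapped no E2F-type word in the members. These matches are letters in a window and not measured binding.

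The PRC1 enzymes had the layout of Ezh1. Rnf2 (chromosome 1, 151469410 to 151500820), the main H2A ubiquitin ligase, measured 72.8, 44.8 and 81.7 under CCL5 and 41.2, 43.6 and 47.7 under control conditions, in CPM (log2 fold change 0.59 with an SE of 0.25, edgeR adjusted p = 0.367). Ring1 (chromosome 17, 34020792 to 34024680), its paralog, measured 34.6, 22.8 and 36.7 under CCL5 against 23.97, 22.4 and 24.7 CPM (0.40 with an SE of 0.22, edgeR adjusted p = 0.442). For both genes ccl5 replicates 1 and 3 lay above the other 4 libraries and ccl5 replicate 2 lay among the controls. Per kilobase, Rnf2 exceeded Ring1 in every library, the ratio being 1.41, 1.32 and 1.497 across ccl5 replicates 1 to 3 and 1.16, 1.30 and 1.30 across control replicates 1 to 3.

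Bmi1 (chromosome 2, 18677018 to 18686629), the PCGF subunit tied to self-renewal, measured 28.2, 20.2 and 31.5 under CCL5 and 24.5, 23.7 and 21.9 under control conditions, in CPM. In TMM-scaled CPM, ccl5 replicates 1 and 3 were again the highest, by a smaller margin, and ccl5 replicate 2 was the lowest of all 6. The TMM factors of ccl5 replicates 1 to 3 were 0.846, 1.19 and 0.819, and the layout of Bmi1 depends on this scaling. The log2 fold change was 0.19 (SE 0.21, edgeR adjusted p = 0.706), and -0.026 with library totals only. The nearest profiles to Bmi1 were those of Fbxl8 (distance 0.023), Ccnl1 (0.035), the gene of cyclin L1, and Cyb5r4 (0.037). Pcgf2, which encodes MEL18, the closest relative of BMI1, measured 8.19, 7.88 and 7.74 under CCL5 and 11.9, 11.9 and 10.5 under control conditions, in CPM, with no overlap between the groups (log2 fold change -0.52 with an SE of 0.20, edgeR adjusted p = 0.365). Over all alternatives run its log2 fold change lay between -0.69 and -0.44, and it was called in none. Per kilobase the Bmi1 level was 2.72, 2.02 and 3.21 times that of Pcgf2 across ccl5 replicates 1 to 3 and 1.63, 1.57 and 1.64 times across control replicates 1 to 3.

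Of the CBX readers of the histone mark, Cbx2 had the widest range of the 10 members, 5.73-fold. Cbx2 (chromosome 11, 119023030 to 119031270) measured 14.2, 2.75 and 13.7 under CCL5 and 3.49, 3.20 and 2.48 under control conditions, in CPM, from 199, 45 and 150 counts and 55, 60 and 45 counts. Ccl5 replicates 1 and 3 were high and alike, and ccl5 replicate 2 lay inside the control range, between control replicates 2 and 3. The group means were 10.2 ± 6.45 and 3.05 ± 0.521 CPM (SD, n = 3 each), with a log2 fold change of 1.73 (SE 0.63, edgeR adjusted p = 0.365). With the 4 libraries that had Y-linked reads the log2 fold change was -0.15.

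Cbx8 (chromosome 11, 119038440 to 119040910), which lies beside Cbx2, measured 4.34, 6.96 and 3.003 under CCL5 and 4.31, 4.16 and 7.04 under control conditions, in CPM. It was high in ccl5 replicate 2 and control replicate 3 and lowest in ccl5 replicate 3, where Cbx2 was high, so these neighbours did not share a layout. Its log2 fold change was -0.11 (SE 0.42, edgeR adjusted p = 0.915), and with 33 to 128 counts it was the member with the fewest counts in ccl5 replicates 1 and 3. Cbx7 (chromosome 15, 79915807 to 79932646), the CBX protein typical of stem cells, measured 16.02, 19.2 and 16.1 under CCL5 and 18.2, 15.03 and 21.3 under control conditions, in CPM (-0.09 with an SE of 0.21, edgeR adjusted p = 0.867). Its values spanned a 1.42-fold range with the groups interleaved.

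The 3 CBX members were also compared with each other per kilobase of exon. Cbx7 was the highest of the 3 in every library, between 5.20 and 7.36 CPM per kilobase. Cbx2 measured 3.79, 0.735 and 3.65 CPM per kilobase across ccl5 replicates 1 to 3 and 0.933, 0.855 and 0.662 across control replicates 1 to 3. The corresponding levels of Cbx8 were 3.12, 4.998 and 2.16 and then 3.10, 2.99 and 5.05 CPM per kilobase. Cbx2 thus lay above Cbx8 in ccl5 replicates 1 and 3 and below it in the other 4 libraries. Cbx6, a further CBX gene, measured 1.27, 1.84 and 0.952 under CCL5 against 0.442, 0.567 and 1.75 CPM per kilobase. It lay below Cbx7 and Cbx8 in every library. Not divided by length, Cbx6 measured 6.91, 10.02 and 5.19 under CCL5 against 2.41, 3.09 and 9.52 CPM. Its groups overlapped through control replicate 3.

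**Figure D3:**
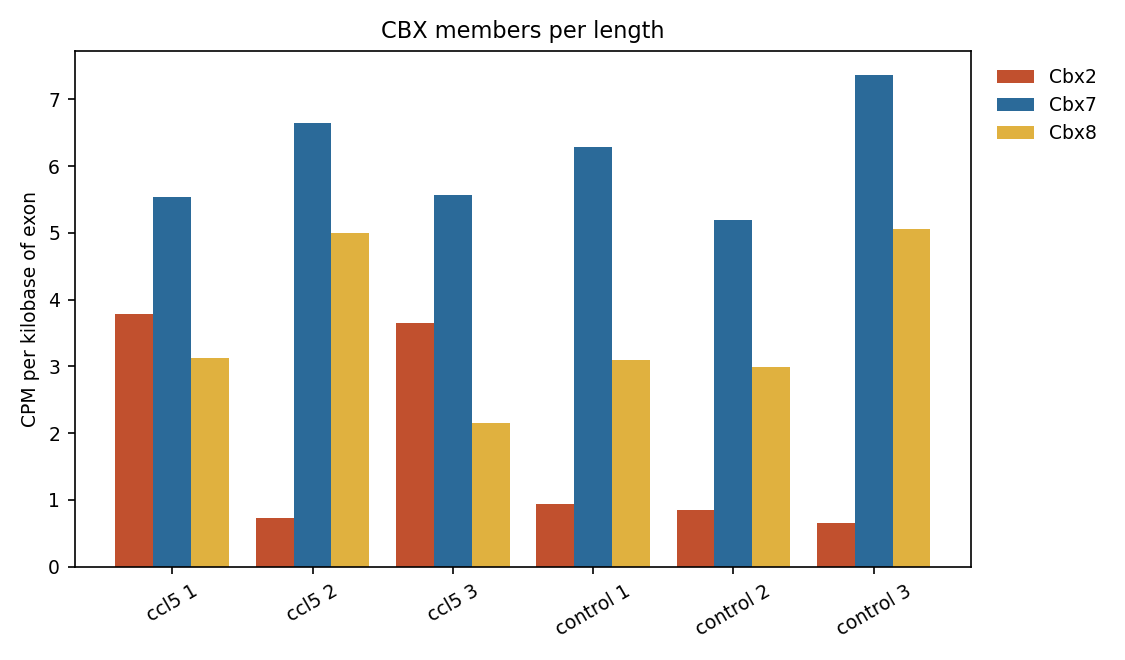
Level of Cbx2 (red), Cbx7 (blue) and Cbx8 (yellow) in CPM per kilobase of exon in each library, from 0. Cbx2 exceeds Cbx8 in ccl5 replicates 1 and 3, at 3.79 and 3.65, and stays at or below 0.933 in the other 4 libraries.

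Per kilobase of exon, and averaged over the 6 libraries, the order of the members was Suz12 (32.5 CPM per kilobase), Eed (18.7), Rnf2 (18.3), Ezh2 (15.5), Ezh1 (14.9), Ring1 (13.5), Bmi1 (6.96), Cbx7 (6.10), Cbx8 (3.57) and Cbx2 (1.77). Suz12 was above Eed, Ring1 above Bmi1 and Cbx7 above Cbx8 in all 6 libraries with ranges that did not overlap. The other neighbours in this order overlapped in range. Eed was above Rnf2 in 4 of 6 libraries, Rnf2 above Ezh2 in 3, Ezh2 above Ezh1 in 4, Ezh1 above Ring1 in 5, Bmi1 above Cbx7 in 4 and Cbx8 above Cbx2 in 4. Eed, the PRC2 methyltransferases and the PRC1 ligases thus formed a middle group whose internal order changed between libraries, with the CBX genes below them.

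Layouts over the libraries were counted in the members and in all tested genes. In 5 of 10, Ezh1, Bmi1, Ring1, Rnf2 and Cbx2, ccl5 replicates 1 and 3 both lay above the other 4 libraries, a layout shared by 30.8% of all tested genes, and in Ezh2 alone both lay below, as in 30.3% of all tested genes. In 4 of 10, Ezh2, Suz12, Cbx7 and Cbx8, ccl5 replicate 2 and control replicate 3 lay above the other 4, against 27.8% of all tested genes, and in Bmi1 and Cbx2 both lay below, against 28.3%. Control replicates 1 and 2 lay above the other 4 in 0 of 10 members (21.4% of all tested genes) and below in 1, Rnf2 (19.7%). A gene can have more than 1 of these layouts. All are counted in TMM-scaled CPM, and narrow margins, such as those of Bmi1, depend on this scaling. Over all 10 members ccl5 replicate 2 and control replicate 3 differed by less than 1.2-fold, with a median absolute log2 ratio of 0.11 over the members and 0.11 over all tested genes. At the TMM scaling, ccl5 replicates 1 and 2, of the same group, differed by less than that in 1 member, Eed. Their median absolute log2 ratio was 0.65 over the members and 0.62 over all tested genes. With ccl5 replicate 2 left out, edgeR called 4 of the 10 members higher with CCL5, while it called 14.3% of all tested genes higher and 26.2% in either direction. Leaving out control replicate 3 gave 0 called members and 1.88% of all tested genes. The 4 members called without ccl5 replicate 2 were Ezh1 (log2 fold change 0.75, adjusted p = 0.0114), Ring1 (0.59, adjusted p = 0.0256), Rnf2 (0.81, adjusted p = 0.0139) and Cbx2 (2.19, adjusted p = 0.00592). The 2 ccl5 libraries of that fit are those without Y-linked reads, so in that fit treatment and the absence of Y-linked reads cannot be told apart. With the 4 libraries that had Y-linked reads, which leave ccl5 replicate 2 alone against 3 controls, the log2 fold changes of these 4 genes were -0.01, -0.06, 0.02 and -0.15 and edgeR called 0 members and 0% of all tested genes.

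**Figure D4:**
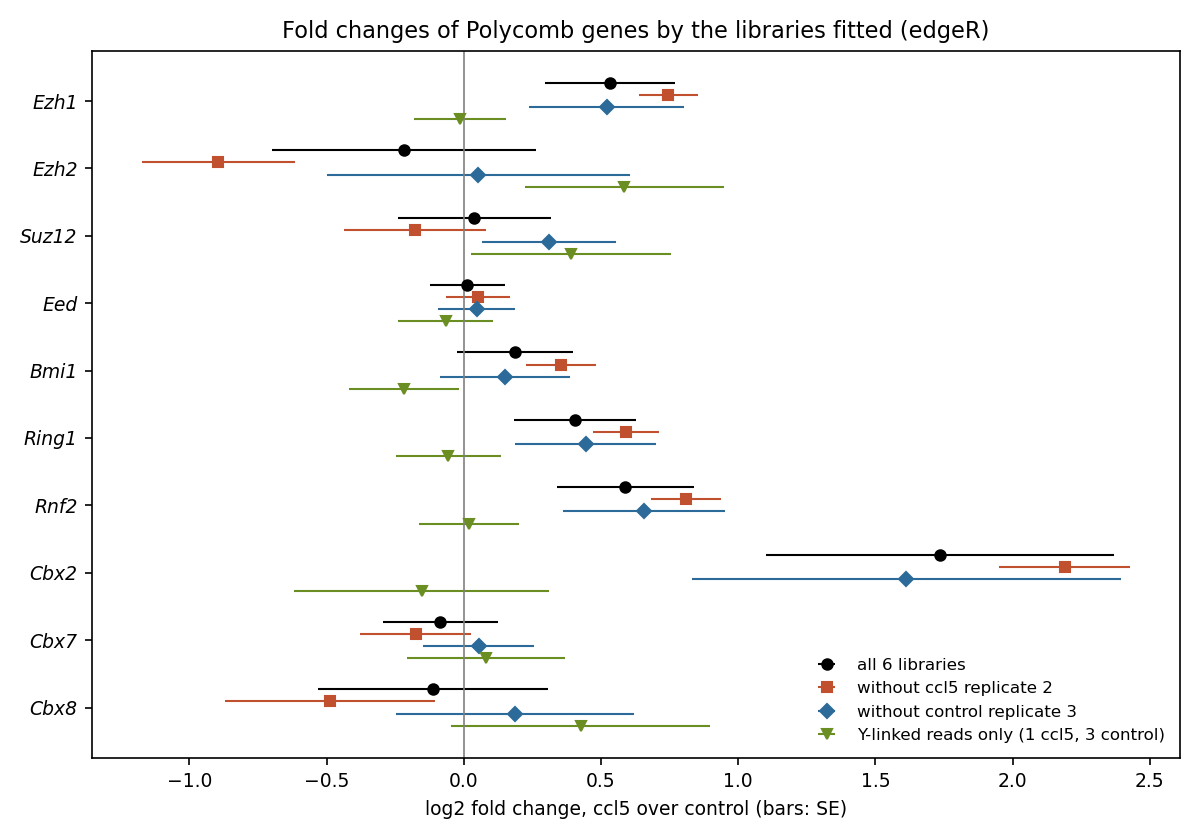
Log2 fold change, ccl5 over control, of each Polycomb gene (horizontal axis, bars are standard errors from edgeR) with all 6 libraries (black), without ccl5 replicate 2 (red), without control replicate 3 (blue) and with the 4 libraries that had Y-linked reads (green). Ezh1, Ring1, Rnf2 and Cbx2 lie in green at -0.01, -0.06, 0.02 and -0.15, below their values in the other 3 fits.

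The accessory subunits of PRC2 did not pass the test either (0 of 8, with 2 fold changes above 1 and 6 below). Mtf2, which helps bring PRC2 to CpG islands, measured 78.2, 86.9 and 91.7 under CCL5 and 114, 114 and 90.5 under control conditions, in CPM (log2 fold change -0.31 with an SE of 0.16, edgeR adjusted p = 0.419). Jarid2, a cofactor that stimulates PRC2, measured 90.9, 114 and 87.4 under CCL5 against 118, 111 and 107 CPM. Epop, listed under its older symbol E130012A19Rik, was low, at 0.819 to 3.11 CPM. Phf19, a relative of Mtf2, measured 5.48, 24.6 and 3.55 under CCL5 and 12.05, 10.6 and 24.8 under control conditions, in CPM. As for Ezh2, ccl5 replicate 2 and control replicate 3 were its highest libraries and ccl5 replicate 3 the lowest. The histone chaperones Rbbp4 and Rbbp7, named after their values were seen, were also highest in ccl5 replicate 2 and control replicate 3, at 304 and 294 CPM for Rbbp4 and at 120 CPM (119.8) and 106 CPM for Rbbp7. In the other 4 libraries Rbbp4 lay between 151 and 171 CPM and Rbbp7 between 57.7 and 85.8 CPM. With Phf19 these made 3 of 8 accessory genes with that layout (27.8% of all tested genes), while Phf1, also named after its values were seen, was lowest in the same 2 libraries.

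Of 17 further PRC1 genes 16 were tested, 10 with a fold change above and 6 below 1, and 0 passed the adjusted threshold. At an unadjusted p under 0.05 there were 1 higher and 2 lower of 16, Rybp, Yaf2 and Pcgf2, against 8.99% and 4.67% of all tested genes. These were also the 3 whose groups did not overlap, against 15.8% of all tested genes. Rybp and Yaf2 are paralogs whose products take the place of a CBX protein in variant PRC1. Rybp measured 77.1, 45.8 and 82.7 under CCL5 and 27.2, 26.4 and 44.1 under control conditions, in CPM (log2 fold change 1.07 with an SE of 0.32, edgeR adjusted p = 0.365). Yaf2 measured 27.5, 46.7 and 27.6 under CCL5 against 67.1, 59.3 and 47.6 CPM (-0.77 with an SE of 0.27, edgeR adjusted p = 0.365). The paralogs thus had opposite layouts, and for both the groups met between ccl5 replicate 2 and control replicate 3, 45.8 against 44.1 CPM and 46.7 against 47.6 CPM. Without ccl5 replicate 2 edgeR called both, Rybp at 1.30 (adjusted p = 0.0265) and Yaf2 at -1.07 (adjusted p = 0.0161). That fit called 26.2% of all tested genes, and in it treatment and the absence of Y-linked reads cannot be told apart.

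**Figure D5:**
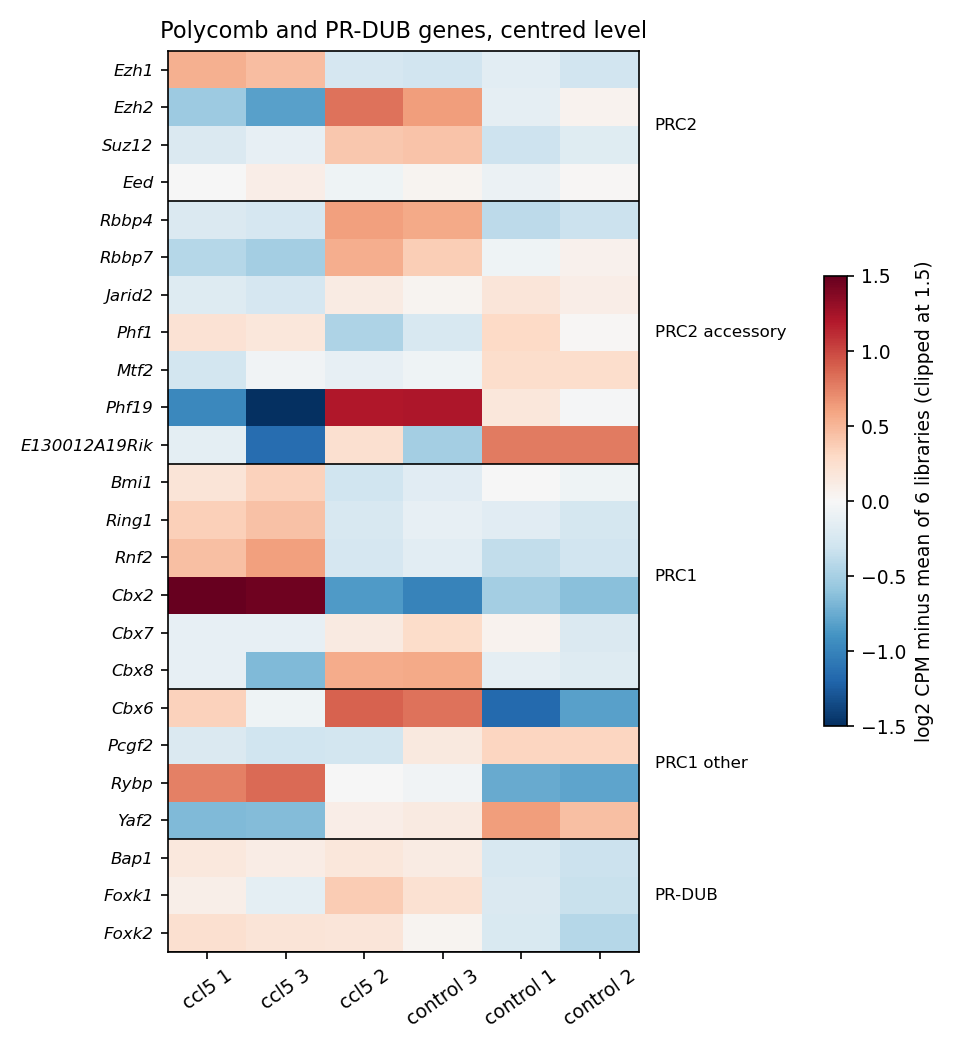
Log2 CPM minus the mean of the 6 libraries (colour, clipped at 1.5 in either direction) of the PRC2, PRC1 and PR-DUB genes described here, with alike libraries side by side. Cbx2 and Rybp are red in ccl5 replicates 1 and 3, Ezh2 and Phf19 are red in ccl5 replicate 2 and control replicate 3, and the columns of these last 2 libraries look alike although 1 is a ccl5 and 1 a control library.

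PR-DUB, the complex that removes the ubiquitin PRC1 adds, had 5 tested genes of 6, with 4 fold changes above 1 and 0 past the threshold. Foxk2, a DNA-binding partner, measured 69.4, 67.1 and 67.35 under CCL5 and 50.2, 43.8 and 60.6 under control conditions, in CPM without overlap (log2 fold change 0.40 with an SE of 0.16, edgeR adjusted p = 0.366). Bap1, the deubiquitinase itself, measured 63.5, 64.1 and 61.4 under CCL5 against 48.1, 45.5 and 62.1 CPM, and Foxk1, the paralog of Foxk2, ranged from 34.4 to 49.4 under CCL5 and from 30.2 to 44.7 CPM under control conditions. Among 14 enzymes and subunits that oppose Polycomb, 8 had a fold change above and 6 below 1, and 0 passed. Kdm6a, the X-linked H3K27 demethylase gene UTX (chromosome X, 18162667 to 18279358), measured 82.5, 39.0 and 88.3 under CCL5 and 44.1, 41.2 and 42.02 under control conditions, in CPM (0.72 with an SE of 0.32, edgeR adjusted p = 0.374). It was high in the 2 libraries without Y-linked reads and is known to escape X inactivation, and the part of either in its level was not tested. Without ccl5 replicate 2 edgeR called it at 1.012 (adjusted p = 0.00532). Kdm6b, the inducible demethylase, measured 89.6, 41.9 and 82.8 under CCL5 against 71.5, 76.9 and 47.2 CPM. Mll3, an older symbol of the H3K4 methyltransferase gene Kmt2c, measured 119 (118.5), 92.2 and 122 under CCL5 against 77.0, 82.3 and 93.5 CPM, and Dpy30, a subunit shared by such methyltransferases, 26.1, 49.2 and 24.9 against 41.2, 43.7 and 48.1 CPM. Without ccl5 replicate 2 edgeR called Mll3 at 0.52 (adjusted p = 0.0439) and Dpy30 at -0.79 (adjusted p = 0.0155). The fit that called Kdm6a, Mll3 and Dpy30 also called 26.2% of all tested genes. In it treatment and the absence of Y-linked reads cannot be told apart.

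Known Polycomb targets that mark other lineages were at or near 0. Of 19 target genes listed, 16 had at most 3 counts in every library, among them Gata4, Pax6, Sox17 and the B-cell regulators Pax5 and Ebf1, and Hand2, Neurog1 and Hoxd13 had 0 counts in all. Lhx2 had at most 10 counts. A count of 0 allows up to 0.273 CPM in the shallowest library. The 2 tested targets were cell cycle inhibitor genes. Cdkn2a, the locus of p16Ink4a and p19Arf whose transcripts were counted together (chromosome 4, 89274473 to 89294619), measured 66.7, 33.7 and 69.0 under CCL5 and 149.5, 144 and 34.8 under control conditions, in CPM (log2 fold change -0.96 with an SE of 0.59, edgeR adjusted p = 0.485). Its neighbour Cdkn2b measured 6.13, 2.32 and 6.01 under CCL5 against 13.2, 12.8 and 1.93 CPM. Both were highest in control replicates 1 and 2 and lowest in ccl5 replicate 2 and control replicate 3. Among the members, Ezh2, Suz12, Cbx7 and Cbx8 were highest and Bmi1 and Cbx2 lowest in those last 2 libraries. With primary transplant libraries only, the log2 fold change was 0.54 for Cdkn2a and 1.09 for Cdkn2b, the opposite sign.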

How the data were processed

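The deposited table holds raw read counts per gene, 1 column per library, which the authors made with featureCounts 1.5.1 from primary alignments and the UCSC mm10 annotation, per the file headers. Reads were 100 bases, single-end, per the labels' protocols. The submitters' processing notes also list Trimmomatic, Bowtie, TopHat and DESeq2 and give no version of these. No strand option was set, and no other gene of the table shares exon bases with a member. Columns were matched to samples by the letter that ends each title. Exon lengths are those of the table.

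Counts were scaled by TMM and filtered with filterByExpr (minimum count 10), which left 12174 genes. The test was edgeR 4.0.16's quasi-likelihood F test in R 4.3.3, ccl5 against control, two-sided, Benjamini-Hochberg adjusted over all tested genes at 0.05. SE is the absolute log2 fold change over the square root of F. CPM uses TMM-scaled library sizes, and profiles use log2 CPM with a prior count of 2. Alternatives were DESeq2 1.42.0, its size factors, limma-voom (limma 3.58.1), 2 other filters, leaving out each library, primary transplant libraries only and libraries with Y-linked reads only (at least 10 counts over 4 genes). Scaling by library totals was added after the data were seen.

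Members, lists and the E2F words were chosen with earlier results of these data known. Named genes are the members, up to 3 genes with the smallest p from each list, a fixed set and the 3 nearest profiles of Ezh1, Ezh2 and Bmi1. Of 135 listed symbols, 128 were matched directly and 7 by an older symbol at the same locus. A few genes that this rule names are not reported here.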

Additional observations from a re-analysis of the deposited data

How the results depend on the processing

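With all 6 libraries edgeR called 0 of all tested genes and 0 members, also with DESeq2 size factors, no filter, a stricter filter or scaling by library totals, and limma-voom called 0. DESeq2's Wald test called 199 genes and 0 members. Leaving out 1 library gave 0 to 3299 called genes and 0 to 4 called members. Both were highest without ccl5 replicate 2, and 237 genes were called without control replicate 3. Log2 fold changes that changed sign when 1 library was left out ranged from -0.90 to 0.0699 for Ezh2, -0.18 to 0.31 for Suz12, -0.0245 to 0.0513 for Eed, -0.21 to 0.0545 for Cbx7, -0.49 to 0.19 for Cbx8, -0.0542 to 0.41 for Kdm6b, -1.80 to 0.00088 for Phf19, -2.27 to 0.49 for Mki67, -0.92 to 0.0512 for Gne, -0.98 to 0.0805 for Mms22l, -0.25 to 0.48 for Rbbp4, -0.15 to 0.16 for Phf1 and -0.60 to 0.0132 for Rbbp7. With libraries that had Y-linked reads only, where ccl5 replicate 2 stands alone and is assumed to vary like the controls, signs turned for Ezh1 (-0.014), Ezh2 (0.58), Eed (-0.066), Bmi1 (-0.22), Ring1 (-0.056), Cbx2 (-0.15), Cbx7 (0.079), Cbx8 (0.43), Jarid2 (0.0196), Kdm6a (-0.13), Dpy30 (0.15), Kdm6b (-0.64), Phf19 (0.63), Mki67 (0.96), Map3k3 (-0.055), Gne (0.54), Ddx39 (0.46), Mms22l (0.61), Fbxl8 (-0.27), Ccnl1 (-0.21), Cyb5r4 (-0.22) and Rbbp7 (0.41). With primary transplant libraries only, where control replicate 3 stands alone, they turned for Suz12 (-0.27), Eed (-0.042), Epop (0.22), Foxk1 (-0.10), Cdkn2a (0.54), Cdkn2b (1.09), Phf1 (0.12), Cbx6 (-0.33) and Rbbp4 (-0.33). With library totals only, they turned for Suz12 (-0.11), Eed (-0.17), Bmi1 (-0.026), Kdm6b (-0.095), Fbxl8 (-0.048), Ccnl1 (-0.0074), Cyb5r4 (-0.069) and Rbbp4 (-0.043). The cause was not tested. No paired analysis was possible because the ccl5 titles carry letters and no replicate numbers, and the shared source name neo10 joins ccl5 replicates 2 and 3 to 1 control library, fewer than 2 pairs. Cbx8 and Cbx2, with 33 to 199 counts per library, were the members with the least depth.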
